A study of Zea mays with 4 samples.

Results

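Probes for ethylene synthesis, ethylene signalling and AP2-type transcription factors were examined in maize roots 1 h after a local supply of nitrate. Members were maize probes with 1 spot in 1 array version whose annotation text names ethylene, aminocyclopropane, an AP2 domain, APETALA2, EREBP, DREB or CBF-like, leaving out methylene and polyethylene. There were 134 members among 54787 such maize probes, 77 of 28450 on version A of the array and 57 of 26337 on version B. Another 3 annotated IDs, with 6 spots, occur more than once on the arrays and were left out. The members matched 69 different protein hits, and 95 of them shared 1 of 30 hits with another member, so they are probes rather than separate genes. Annotations are those of the array design and mostly name the closest rice protein. Neither probe sequences nor genome positions were analysed here.

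Maize plants (Zea mays, aged 10 days by the labels) had grown for 6 days with 0.5 mM nitrate and for 2 days without nitrogen before their roots were divided between 2 compartments. The treated half-root received 1.0 mM nitrate, and the control half-root received none and 1.0 mM CaCl2 to balance calcium. Both sides belonged to nitrogen-deprived plants, so the control is the nitrogen-free side of a root system whose other side was fed. Root segments reaching 15 cm from the tip were taken, and nitrate-treated RNA (Cy3) was hybridised against control RNA (Cy5) on 2 replicate arrays of each version, 4 arrays in all. No dyes were swapped, so a dye effect of a probe cannot be told apart from the treatment. The series describes biological replicates, but the column headers do not say whether the RNA of both arrays of a version came from separate plants, so the spread between arrays may in part be technical. Whether versions A and B were hybridised with separate RNA was not established either, so agreement between versions cannot be read as independent replication. No genotype is given in the labels.

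Ethylene is a gaseous plant hormone made from S-adenosylmethionine. ACC synthase forms its precursor 1-aminocyclopropane-1-carboxylate (ACC), and ACC oxidase turns this into ethylene. The receptors and the kinase CTR1 repress the pathway until ethylene binds, after which EIN2 and the EIN3-like transcription factors switch on genes that include ethylene response factors (ERFs, also called EREBPs), members of the AP2-domain family. In roots the hormone is known for restraining elongation and for acting on lateral roots and root hairs.

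Median intensities lay between 1438 and 1960 in the control channel and between 1572.5 and 1939 in the nitrate channel. Of the annotation lists used to check the samples, 77 of 80 probes of the root list were above the blank spots, against 102 of 108 of the leaf list and 210 of 319 of the seed list. The root list takes in 3 DNA repair probes by a chance match of its search text, and signal on leaf and seed probes was not traced further. In the check of nitrate response, 10 of 11 nitrate and nitrite reductase probes had a mean log2 ratio above 0, and 1 of them passed the test. It was the nitrite reductase probe MZ00016104, with a mean of 2.94 ± 0.49 (SD, n = 2) and an adjusted p of 0.00897 in limma. Its mean stayed between 2.55 and 3.13 in the processing alternatives, but its call depended on them. The adjusted p in limma was 0.376 with plain intensities, 0.529 in the deposited ratios and 0.24 with a maximum-likelihood prior.

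Values below are log2 ratios of the nitrate-fed over the nitrogen-free half-root after loess normalization within each array, as the mean ± SD of n = 2 arrays, and a positive value means more signal with nitrate. In whole root segments, more cells of a type and more RNA per cell cannot be told apart. Of the 134 members, 131 had at least 1 channel above the blank spots on both arrays and were tested, 75 on version A and 56 on version B. No member passed limma at an adjusted p of 0.05 on version A, where 0.0% of all 28374 tested probes passed, and none passed on version B, where 0.0525% did, 13 of 24748. The directions given below are therefore those of the measured ratios and not of called changes.

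At an unadjusted limma p under 0.05, 10 of 75 version A members were higher with nitrate (13.3%, against 7.55% of all tested probes) and 6 were lower (8.0%, against 4.49%). On version B 10 of 56 were higher (17.9%, against 7.64%) and 3 were lower (5.36%, against 5.29%). The mean was above 0 for 58.7% of members on version A, against 50.4% of all probes, and for 57.1% on version B, against 49.6%. The median member stood at 0.0797 on version A and 0.0725 on version B, against 0.0038 and -0.0036 for all tested probes. With each array centred on its median in place of loess, 49.3% of members on version A were above 0, against 50% of all probes, and 51.8% on version B, against 46.5%. That centring put 18.7% of version A members higher at the unadjusted threshold, against 11.1%, and 10.7% on version B, against 11%. It put 13.3% of version A members lower, against 8.5%, and 14.3% on version B, against 10.2%. Print-tip loess put 12% higher on version A, against 7.71%, and 8.93% on version B, against 6.71%. The lower shares with print-tip loess were 5.33% on version A, against 4.33%, and 3.57% on version B, against 4.31%. In the deposited ratios the higher shares were 9.33% on version A, against 6.63%, and 5.36% on version B, against 5.45%. The lower shares there were 4% on version A, against 2.75%, and 1.79% on version B, against 3.32%. The larger share of higher members on version B thus depended on the normalization. Of the tested members, 5 had a channel that was not above the blank spots on at least 1 array. With both channels above the blank spots, 9 of 72 members were higher on version A at the unadjusted threshold (12.5%, against 6.96%) and 6 lower (8.33%, against 4.57%), and 10 of 54 were higher on version B (18.5%, against 7.59%) and 4 lower (7.41%, against 5.63%).

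Replicate arrays gave the same sign for 66.7% of members on version A and 66.1% on version B, against 60.5% and 60.3% of all tested probes. Across probes the 2 arrays of a version correlated at r = 0.31 for 75 members on version A and at 0.46 for 56 members on version B, and at 0.29 and 0.27 for all tested probes. Probes on 1 array share labelling, dye and hybridisation, so these are descriptions. A 2-fold difference was reached by 4 members upward and 4 downward on the replicate 1 arrays, and by 11 upward and 3 downward on the replicate 2 arrays. None was 2-fold in opposite directions.

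Only 3 members differed 2-fold or more in a common direction on their replicate arrays. Both that were higher carry the same annotation, a maize ethylene receptor homologue. They lie on different array versions, which may have carried the same RNA. On version A this was 1 of 75 members (1.33%, against 0.592% of all tested probes), and on version B 1 of 56 (1.79%, against 0.59%). The 1 that was lower is an AP2-domain probe of version A (1.33%, against 0.127%), and on version B no member was 2-fold lower on both arrays, against 0.0566% of all probes. In the deposited ratios 4 of 75 version A members were 2-fold higher on both arrays (5.33%, against 1.92% of all tested probes) and 0 were 2-fold lower (against 0.296%). These 4 include MZ00032386, which passed the filter on replicate 2 through its nitrate channel alone, so it supports nothing in that share. On version B 1 of 56 was higher (1.79%, against 1.27%) and 0 lower (against 0.178%). The version A member that was lower also missed 2-fold with median centring or print-tip loess.

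Ethylene receptors are membrane proteins related to histidine kinases and signal in the absence of ethylene. The receptor probe MZ00034403 on version A read 797 in the control and 2141 in the nitrate channel on replicate 1, and 2227 and 9159 on replicate 2. Nitrate intensity was thus above control intensity on both arrays, while the general level of the probe differed between them. Its log2 ratios were 1.33 and 2.00, with a mean of 1.67 ± 0.47, which is 3.18-fold. The adjusted p in limma was 0.161, and the mean ranked at 70 from the top among 28374 tested probes.

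On version B the receptor probe MZ00042292 read 1782 in the control and 4342 in the nitrate channel on replicate 1, and 4737 and 12889 on replicate 2. Here too the nitrate channel was the brighter on both arrays. The log2 ratios of MZ00042292 were 1.41 and 1.30, with a mean of 1.36 ± 0.08 or 2.56-fold, and its adjusted p in limma was 0.0936. This value passed with a trended and robust prior, at an adjusted p of 0.0314, and with none of the other 8 processing settings tried, which gave up to 0.555. Among 24748 tested probes its mean ranked at 122 from the top.

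The remaining probes of the same receptor hit differed less between the root sides. MZ00049534 on version B had log2 ratios of 0.66 and 0.08 and a mean of 0.37 ± 0.41. For MZ00017959 on version A the ratios were 0.09 and 0.20 with a mean of 0.15 ± 0.08, which turned to -0.15 with median centring. MZ00017959 was also the brightest of these probes, at 15448 and 12774 in the control and nitrate channels of replicate 1 and at 8717 and 9170 on replicate 2. The means of the 4 probes thus spanned 1.52 on the log2 scale, and whether the 4 read 1 gene or several was not examined.

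Among the other receptor probes, MZ00029067, annotated from banana, had log2 ratios of 0.96 and 0.18 with a mean of 0.57 ± 0.55. MZ00022908, annotated from rice, had 0.48 and 0.22 with a mean of 0.35 ± 0.18. Both were above 0 on both arrays. The rice-annotated probes MZ00050633, at -0.07 ± 0.01, and MZ00051464, at -0.31 ± 0.10, share a hit and were below 0 on both arrays, although MZ00050633 stood at 0.0018 in the deposited ratios. A further one, MZ00002176, averaged -0.13 ± 0.27, with replicates on either side of 0, and 0.0738 with median centring. MZ00047960 was too close to the blank spots to be tested. In all, 6 of the 9 tested receptor probes were above 0, with a median of 0.35, and 6 of 9 were with median centring.

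EIN3-like proteins are the transcription factors at the end of the signalling chain. Of 9 probes 1 was saturated, and of the other 8, 7 had a mean above 0, with a median of 0.41, and 3 were above 0 on both arrays, while median centring left 6 of 8 above 0. MZ00035274 on version A read 9859 and 14462 in the control and nitrate channels of replicate 1, and 11996 and 15544 on replicate 2. Its log2 ratios were 0.89 and 0.58 with a mean of 0.74 ± 0.22 and an adjusted p of 0.343 in limma. MZ00037291 on version B, at 0.37 and 0.91, averaged 0.64 ± 0.38 with an adjusted p of 0.339 in limma. These were the EIN3-like probes with an unadjusted limma p under 0.05.

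In MZ00034271 the replicates differed, with log2 ratios of -0.05 and 1.47 and a mean of 0.71 ± 1.08. The control and nitrate intensities of MZ00034271 were 1059 and 1019 on replicate 1 but 774 and 2637 on replicate 2. MZ00034287 averaged 0.55 ± 0.42. The EIL-annotated probes MZ00012084 and MZ00051967 averaged 0.28 ± 0.41 and 0.20 ± 0.65, each with 1 array below 0. The bright probe MZ00025331 stood at 0.18 ± 0.26 and turned below 0 with median centring, with print-tip loess and in the deposited ratios. MZ00042403 was at -0.08 ± 0.22. MZ00042402 was saturated in the control channel of both arrays and in the nitrate channel of 1, so its mean of 0.11 cannot show a difference.

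The genes on either side of the receptors were read from a separate list of 37 probes, of which 35 were tested. It covers methionine synthase and S-adenosylmethionine synthetase, which supply the precursor, and CTR1, EIN2 and EIN3-binding F-box annotations. None passed limma, 5 had an unadjusted p under 0.05 upward (14.3%, against 7.59% of all tested probes of both versions) and 1 downward (2.86%, against 4.86%), and 22 of 35 had a mean above 0, with a median of 0.12. The highest and lowest probes and EIN2 are named here, chosen after their values were seen. The CTR1-like probe MZ00010830 on version A stood highest, with control and nitrate intensities of 139 and 459 on replicate 1, and of 251 and 892 on replicate 2, and log2 ratios of 0.96 and 1.20. Its mean of 1.08 ± 0.17 had an adjusted p of 0.26 in limma.

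EIN2, the membrane protein between CTR1 and EIN3, was measured by MZ00039884 on version B at 0.35 ± 0.01 and by MZ00020882 on version A at 0.30 ± 0.08. Both EIN2 probes were above 0 on each array, and neither had an unadjusted limma p under 0.05. For S-adenosylmethionine synthetase, MZ00042873 averaged 0.75 ± 0.18, while MZ00052429, the lowest of the list, averaged -0.69 ± 0.02. Probes of this enzyme thus stood on both sides of 0.

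ACC synthase, the step that usually limits ethylene production, was represented by 4 probes. MZ00000099 on version A had control and nitrate intensities of 1408 and 2063 on replicate 1, and of 2974 and 4770 on replicate 2. Its log2 ratios were 0.58 and 0.64, with a mean of 0.61 ± 0.04, which is 1.53-fold, and an adjusted p of 0.384 in limma. The nitrate channel was the higher on both arrays by a similar factor. MZ00034102 averaged 0.40 ± 0.52, with 0.77 on replicate 1 and 0.03 on replicate 2. MZ00049677 averaged -0.03 ± 0.31, and above 0 with print-tip loess or the deposited ratios. MZ00018872 averaged -0.20 ± 0.94, with 0.46 on replicate 1 and -0.87 on replicate 2, so its replicates pointed opposite ways.

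ACC oxidase had 9 probes, of which 8 were above the blank spots in both channels, 3 of these with a mean above 0 and 5 below, and with a median of -0.19. They ran from MZ00016113 at 0.71 ± 0.34 to MZ00050117 at -0.58 ± 0.17, and both of these share a sorghum ACO1 hit with MZ00048571, MZ00042027 and MZ00039812. In MZ00016113 the control intensities were 225 and 16, above the blank spots on 1 of 2 arrays, against 538 and 280 in the nitrate channel. MZ00050117 read 5718 and 2856 in the control and nitrate channels of replicate 1, and 3219 and 2790 on replicate 2, with log2 ratios of -0.69 and -0.46 and an adjusted p of 0.361 in limma. On replicate 2 MZ00016113 passed the filter through the nitrate channel alone, so its sign supports nothing. Its mean was 1.17 with median centring, 1.69 with plain intensities and 1.71 in the deposited ratios. No ACO1 probe with both channels above the blank spots was above 0 on both arrays.

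In the other ACO1 probes the means were 0.11 ± 0.16 for MZ00048571 (-0.23 with median centring), -0.18 ± 1.05 for MZ00042027 and -0.21 ± 0.73 for MZ00039812. For each of these the replicates lay on either side of 0. MZ00025945, the brightest ACC oxidase probe, read 38092 and 39715 in the control and nitrate channels of replicate 1, and 21704 and 20041 on replicate 2. Its mean of 0.32 ± 0.22 turned to -0.0743 with median centring. MZ00033158 averaged 0.08 ± 0.22, MZ00025946 averaged -0.23 ± 0.11 and MZ00018436 averaged -0.38 ± 0.99. With median centring 2 of the 9 ACC oxidase probes stayed above 0. They were MZ00033158, at 0.16, and MZ00016113, whose sign supports nothing.

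Ethylene-forming-enzyme-like dioxygenases belong to the same oxygenase superfamily, and their annotation does not show that they make ethylene. MZ00044392 on version B stood highest of 7 probes, with control and nitrate intensities of 6473 and 11306 on replicate 1, and of 6807 and 10232 on replicate 2. Its log2 ratios were 1.17 and 0.47, with a mean of 0.82 ± 0.49 and an adjusted p of 0.258 in limma. The other 6 were on version A. MZ00004140 was lowest, with log2 ratios of -0.44 and -0.87, a mean of -0.66 ± 0.31 and an adjusted p of 0.384 in limma. MZ00027365 at -0.48 ± 0.02, MZ00031909 at -0.36 ± 0.12 and MZ00008260 at -0.30 ± 0.31 were also below 0 on both arrays. MZ00003283 at -0.07 ± 0.25 and the dim MZ00018144 at 0.06 ± 0.15 (0.66 in the deposited ratios) had replicates on either side of 0.

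ERF and EREBP factors bind the GCC box in promoters of ethylene-responsive genes. They were the most numerous members, and they were separated from other ethylene-responsive proteins by their annotations after these had been read. Of 41 probes, 23 had a mean above 0 and 18 below, with a median of 0.05. Among them 6 higher probes (14.6%) and 4 lower ones (9.76%) had an unadjusted limma p under 0.05, against 7.59% and 4.86% of all tested probes of both versions. The hits described next are those with at least 3 probes whose values differed most from 0 or from each other, chosen after the values were seen.

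All 3 probes of a rice hit annotated as a putative EREBP-like protein were above 0 on both arrays. The highest, MZ00048287 on version B, had control and nitrate intensities of 2679 and 4177 on replicate 1, and of 1544 and 7441 on replicate 2. Its log2 ratios were 0.84 and 1.94, so the nitrate channel was the brighter on both arrays but by unequal factors. The mean was 1.39 ± 0.77, which is 2.62-fold, with an adjusted p of 0.147 in limma. On version A, MZ00018541 averaged 0.83 ± 0.11 and MZ00018542 averaged 0.77 ± 0.01. These 3 probes remained above 0 on both arrays with median centring and in the deposited ratios.

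Another hit, ethylene-responsive element binding factor 3 of rice, had 6 probes, all with a mean below 0. In Arabidopsis and tobacco, ERF3 proteins act as repressors of transcription. MZ00018574 on version A read 15889 and 4476 in the control and nitrate channels of replicate 1, and 6721 and 5298 on replicate 2. Its log2 ratios of -1.50 and -0.28 gave a mean of -0.89 ± 0.86 and an adjusted p of 0.384 in limma. Both ratios were below 0, but they differed from each other by more than the size of the mean. MZ00026596 followed at -0.87 ± 0.34, with -1.11 and -0.63 and an adjusted p of 0.312 in limma. On version B, MZ00016033 averaged -0.75 ± 0.38 with an adjusted p of 0.279 in limma, and the same source sequence, read by MZ00036018, averaged -0.29 ± 0.07. The remaining probes MZ00042351 and MZ00016032 stood at -0.26 ± 0.13 and -0.17 ± 0.41, the latter above 0 with print-tip loess or in the deposited ratios. Of these 6 probes, 5 were below 0 on both arrays, as were 6 with median centring and 5 in the deposited ratios.

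Among the 6 probes of the putative EREBP-type hit, means ran from 0.03 for MZ00035877, which turned below 0 with print-tip loess or in the deposited ratios, to 0.77 for MZ00036608, and 3 were above 0 on both arrays. In MZ00036608 the log2 ratios were 0.54 and 1.00, and in MZ00034252 they were -0.06 and 1.44. The replicates of MZ00034252 thus disagreed, as its nitrate intensity was 485 on replicate 1 and 1543 on replicate 2. With median centring 5 of these 6 means stayed above 0, and in the deposited ratios 4 did. Only 1 of the 6 was above 0 on both arrays with print-tip loess or in the deposited ratios. For EREBP1, a rice factor, MZ00014056 averaged 0.78 ± 0.02 and MZ00041825 averaged 0.59 ± 0.55, while the far brighter MZ00015225 averaged -0.33 ± 0.13. The signs within the EREBP1 hit were unequal under median centring and in the deposited ratios as well.

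The hits named EREBP-like protein (a second rice hit), ethylene responsive factor and AP2/EREBP transcription factor each held probes of both signs. In the second EREBP-like hit, MZ00036444 stood at 0.86 ± 0.91 and MZ00043442 at -0.37 ± 0.16, with the dim MZ00024412 at 0.16 ± 0.72 and MZ00024413 at -0.14 ± 0.44 between them, and the signs of these last 2 turned with the normalization. The 4 probes of the ethylene responsive factor hit ran from -0.43 to 0.05 and the 5 probes of the AP2/EREBP hit from -0.38 to 0.32. MZ00018321, annotated AP2 domain transcription factor EREBP, gave the widest split of this role, with log2 ratios of -0.47 and 1.95. Its control intensity was 12720 on replicate 1 and 2952 on replicate 2, while the nitrate channel read 7345 and 11307. ERF1, named for a tomato protein, was represented by MZ00012587 with log2 ratios of -0.44 and -0.96 and a mean of -0.70 ± 0.37. A rice-annotated ERF1 probe on version A had smaller log2 ratios of -0.12 and -0.47, with a mean of -0.30 ± 0.25.

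The AP2-domain probes without an ethylene annotation numbered 17, of which 11 had a mean above 0 and 6 below, with a median of 0.04, and median centring gave 8 and 9. MZ00030906 on version A was the lowest of them. Its control and nitrate intensities were 1510 and 678 on replicate 1, and 1596 and 817 on replicate 2, so the nitrate channel was well below the control on both arrays. The log2 ratios were -1.04 and -1.10, with a mean of -1.07 ± 0.04 and an adjusted p of 0.26 in limma. MZ00030906 ranked at 102 from the bottom among 28374 tested probes, and its mean lay between -1.18 and -0.91 over the 9 alternatives.

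The highest AP2-domain probe was MZ00024772, annotated AP210, at 0.64 ± 1.56, with log2 ratios of -0.46 and 1.74. A second probe of the same source sequence, MZ00034357, had ratios of 0.03 and 0.98. Both probes therefore read higher with nitrate on replicate 2, and lower or near 0 on replicate 1. The brightest, MZ00051385, had control and nitrate intensities of 54047 and 32790 on replicate 1, and of 55087 and 52040 on replicate 2, and averaged -0.15 ± 0.23.

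APETALA2-class genes carry paired AP2 domains and act mainly in organ identity. Of 3 probes, 2 were above the blank spots in both channels, and both had a mean above 0, also with median centring. MZ00032386 measured Glossy15, which maintains juvenile leaf identity in maize. It read 76 and 275 in the control and nitrate channels of replicate 1, and 19 and 213 on replicate 2, with the control above the blank spots on 1 of 2 arrays. On replicate 2 this probe passed the filter through its nitrate channel alone, where it was the brighter, so its sign supports nothing. Its mean was 0.85 ± 0.14, but 1.21 with median centring, 1.72 with plain intensities and 1.82 in the deposited ratios. MZ00040401 averaged 0.70 ± 0.82 and MZ00037336, the brightest, averaged 0.58 ± 0.13.

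DREB and CBF factors bind the dehydration-responsive element and are known from cold and drought responses. Their 5 probes ran from MZ00033883 at -0.28 ± 0.11 to MZ00029259 at 0.51 ± 0.29, with 4 above 0, none with an unadjusted limma p under 0.05. MZ00029259 and MZ00048315, the latter at 0.45 ± 0.28, share a maize DREB-like hit and were above 0 on both arrays. MZ00033883 and MZ00048054, which averaged 0.02 ± 0.42 and was below 0 in the deposited ratios, share another such hit.

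Proteins annotated as ethylene-responsive that are not DNA-binding factors had 22 probes, of which 20 were tested, with 10 above 0 and 10 below and a median of 0.03. The 5 probes of a transcriptional coactivator of the MBF1 type ran from MZ00014178 at -0.78 ± 0.19 to MZ00052447 at 0.49 ± 0.28. MZ00014178 read 2442 and 1174 in the control and nitrate channels of replicate 1, and 929 and 687 on replicate 2. The other 3 of these 5 probes also had means below 0. A coactivator-like probe of another hit averaged -0.39 ± 0.07. All 3 probes of a plastid or mitochondrial translation factor of the EF-Ts type had means above 0, up to 0.70 ± 0.30 for MZ00033435. Of these, 2 were above 0 on both arrays, and 1 mean fell below 0 with print-tip loess or in the deposited ratios.

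Small GTP-binding proteins of this group gave opposite signs for 1 source sequence. MZ00036251 on version B had log2 ratios of 0.90 and 0.48, and MZ00025164 on version A, made from the same sequence, had -0.31 and -0.25. Each probe was alike on its own replicates, and the difference between versions was not tested. The other tested GTP-binding probes, all on version A, had means of 0.43, -0.06 and -0.36. MZ00014304 and MZ00014173, also GTP-binding proteins, were below the blank spots and were not tested.

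The remaining 7 members carry other ethylene wording. ER1, in tobacco a calmodulin-binding protein induced by ethylene, was read by MZ00033038 on version A with control and nitrate intensities of 181 and 425 on replicate 1, and of 244 and 832 on replicate 2. Its log2 ratios were 0.66 and 1.13, with a mean of 0.90 ± 0.34 and an adjusted p of 0.312 in limma. MZ00046505, of the same hit on version B, stood at 0.17 ± 0.05. A probe annotated as similar to this family, MZ00001281, had the lowest mean of all members, -1.64 ± 2.32, and it rested on 1 array. Its log2 ratio was -0.0041 on replicate 1 and -3.28 on replicate 2, where the control channel read 2714 and the nitrate channel 247, against 660 and 694 on replicate 1.

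The ethylene-inducible protein, of the family that makes vitamin B6, and the tobacco kinase PK12 showed smaller ratios. MZ00025540, the brightest of these members, averaged 0.05 ± 0.15 and -0.35 with median centring. MZ00037307 averaged -0.26 ± 0.21, and the PK12 probes MZ00001435 and MZ00027243 averaged -0.11 ± 0.57 and -0.32 ± 0.03. None of these 4 had an unadjusted limma p under 0.05.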

How the data were processed

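RNA of nitrate-treated and control half-roots was compared on 4 arrays, 2 of each version. The authors deposited intensities per spot and dye, some of them below 0, so a background had already been subtracted (the sources used here do not say how). The authors also deposited a normalized ratio of nitrate over control on a linear scale, whose median was between 0.985 and 1.0005. Its log2 correlated at 0.636 to 0.797 with the ratios computed here, which gives its direction. The series value table differed from it by 0.

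From the intensities, log2 ratios were computed here in R 4.3.3 and limma 3.58.1. The background step was normexp (offset 50), followed by global loess. Control spots and 4 to 10 spots per array flagged B, read as bad quality, had weight 0. Probes entered the test if 1 channel or both exceeded the 95th percentile of the blank and buffer spots on both arrays. A channel was called saturated at 98% or more of its maximum. Each version was fitted alone with lmFit and eBayes on 1 residual degree of freedom, with Benjamini-Hochberg adjustment over all its tested probes and a threshold of 0.05. The 2 arrays per version limit the precision. The fit was also run on simulated ratios with known changes. Their spread was drawn from the fitted prior, without a dye effect, so that run cannot show how the fit performs on the real arrays.

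Members, roles and lists were chosen with earlier results of these data known. Named are each ACC synthase, ACC oxidase and receptor or signalling member, in each other role the highest, the lowest and the brightest tested member, each called member and each that differed 2-fold or more in a common direction on its replicate arrays. Further probes, named as examples of a shared protein hit or of a spread between replicates, were chosen after their values were seen. None of the members matched the RefSeq gene table by accession (0 matches).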

Additional observations from a re-analysis of the deposited data

How the results depend on the processing

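Of 88 tested probes named in the text, 72 kept the sign of their mean in those of the 9 processing alternatives that included them, and 16 turned in at least 1. The alternatives that change only the filter or the prior use the same ratios as the main setting. A mean could therefore not turn in them, and they say nothing about the stability of a sign. With median centring the mean turned to -0.0743 for MZ00025945, -0.15 for MZ00017959, -0.35 for MZ00025540, -0.22 for MZ00025331, -0.23 for MZ00048571, 0.0427 for MZ00024413, 0.0738 for MZ00002176 and -0.30 for MZ00042402. With print-tip loess it turned to 0.0674 for MZ00003283, -0.0691 for MZ00018144, -0.0395 for MZ00025331, -0.0365 for MZ00042402, -0.0501 for MZ00035877, -0.18 for MZ00048054, -0.0713 for MZ00024412, 0.0186 for MZ00016032 and 0.18 for MZ00049677. The deposited ratios gave 0.0869 for MZ00003283, -0.0359 for MZ00025331, -0.0201 for MZ00042402, -0.0644 for MZ00035877, -0.23 for MZ00048054, -0.0956 for MZ00024412, 0.0425 for MZ00016032, 0.17 for MZ00049677 and 0.0018 for MZ00050633. The cause was not tested.

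The number of members called stayed at 0 except for 1 on version B, the receptor probe MZ00042292, with a trended and robust prior. Version A members at least 2-fold higher on both arrays numbered 2 with plain intensities, 2 with median centring and 4 in the deposited ratios, against 1 in the main setting, and 2 to 6 on a single array. The 4 in the deposited ratios include MZ00032386, whose sign supports nothing. Those at least 2-fold lower numbered 2 with plain intensities and 0 with median centring, print-tip loess or the deposited ratios, and 3 on either single array. On version B 2 were 2-fold higher with median centring, and single arrays gave 2 to 5 higher and 0 to 1 lower. The median log2 ratio of the version A members was -0.0082 with median centring and between -0.017 and 0.0915 on single arrays. For version B it was 0.0212 with median centring, 0.033 with print-tip loess, 0.0748 with scaling between arrays, 0.0341 in the deposited ratios, 0.107 without a filter, 0.038 with both channels above the blank spots, and 0.112 to 0.113 on single arrays. Over all tested probes the calls on version A were 0 in the main setting, 8 with print-tip loess and 4 with a trended and robust prior. On version B they were 13 in the main setting, 0 with plain intensities, the deposited ratios or a maximum-likelihood prior, 3 with print-tip loess and 4 with scaling. They were 10 without a filter, 18 with median centring, 24 with both channels above the blank spots and 71 with a trended and robust prior. With 1 array left out there is no test. No paired analysis was possible because each array is already a direct comparison of nitrate with control and the versions carry different probes.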
